A study of Saccharomyces cerevisiae with 7 samples.

Results

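The transcripts described here come from 8 budding yeast genes, NOP1, NSR1, GAR1, SBP1, SCD6, DED1, AIR1 and AIR2, whose RNA-binding proteins are counted among the partners or targets of the arginine methyltransferase Hmt1. They were chosen by gene symbol. Each of them had 1 probe set, so that the 8 genes stand among 5449 genes named by 5498 of the 5900 probe sets in the table. Affymetrix Yeast Genome 2.0 arrays were used to measure total RNA, 1 array for each of 4 wild-type and 3 hmt1 deletion cultures, all called biological replicates in the labels. Both groups were the haploid laboratory strain BY4741 from Open Biosystems, of mating type MATa and with the alleles ura3∆0, met15∆0, leu2∆0 and his3∆1. The deletion strain also carried KANMX4 in place of HMT1. The labels name rich YEPD medium and minimal media with phosphate (MM-KH2PO4) or without it (MM-KCl), and do not give the medium of these cultures. Values are log2 expression, and every difference is the deletion mean minus the wild-type mean on that scale.

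Hmt1 adds methyl groups to arginines in glycine-rich stretches (RGG repeats) of RNA-binding proteins, which can alter the partners and the place of a protein in the cell. Its targets and partners lie along the life of an RNA. Nop1, Gar1 and Nsr1 work in the nucleolus on ribosomal RNA, Sbp1, Scd6 and Ded1 act on the start of translation, and Air1 and Air2 help to mark nuclear RNA for decay. The latter pair were named for their binding to Hmt1. The arrays measured the messenger RNA of these genes and not the proteins or their methylation.

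HMT1 itself read 12.10, 11.76, 11.58 and 11.90 in wild-type replicates 1 to 4 and 5.03, 4.50 and 4.77 in deletion replicates 1 to 3. The deletion values lay within the range of 23 control probe sets without a yeast target (means of 3.34 to 5.13), which makes HMT1 at least 104-fold lower in the deletion strain (limma adjusted p = 4.89e-07). The a-specific mating genes, which a MATa strain expresses, had mean levels between 9.22 and 13.22 in the wild type for 7 of 7 genes. Among 4 alpha-specific genes, which the other mating type expresses, only the pheromone gene MF(ALPHA)1 was at the level of the controls. It read 4.08 in the wild type and 4.12 in the deletion strain. Above the controls lay MF(ALPHA)2, at 5.95 in both strains, and STE3, at 6.89 and 6.86. SAG1 was highest, at 9.01 and 8.83. The wild-type arrays were not uniform. The 5 probe sets of 1 further sequence on the arrays lay between 6.16 and 12.59 in 5 arrays. In the remaining pair, wild-type replicates 1 and 3, they lay between 3.18 and 4.44. The comparison with each pair of wild-type arrays is therefore given where it turns a direction, and for some genes where it moves a value. The a-specific genes divided the same way, since replicates 1 and 3 both lay below replicates 2 and 4 for 7 of 7 genes. ASG7 read 8.19 and 8.52 in replicates 1 and 3 and 10.17 and 10.01 in replicates 2 and 4, and AGA2 read 10.54 and 10.49 against 11.76 and 12.04. The part of this division in the results was not tested otherwise.

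None of the 8 genes passed the test between the strains. Over all 5498 probe sets 11 passed at a limma adjusted p under 0.05, which is 0.2% of them, and the adjusted p of the 8 genes lay between 0.648 and 0.985. At an unadjusted p under 0.05 there was 1 of the 8, AIR2, where 6.64% of all probe sets reached that level. AIR2 was also the 1 gene of the 8 whose wild-type and deletion arrays did not overlap, against 7.64% of all probe sets. In 6 genes the deletion mean was lower and in 2 (SBP1 and SCD6) higher, where 47.5% of all probe sets were lower. The median difference of the 8 was -0.028, beside 0.0065 over all probe sets.

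**Figure D1:**
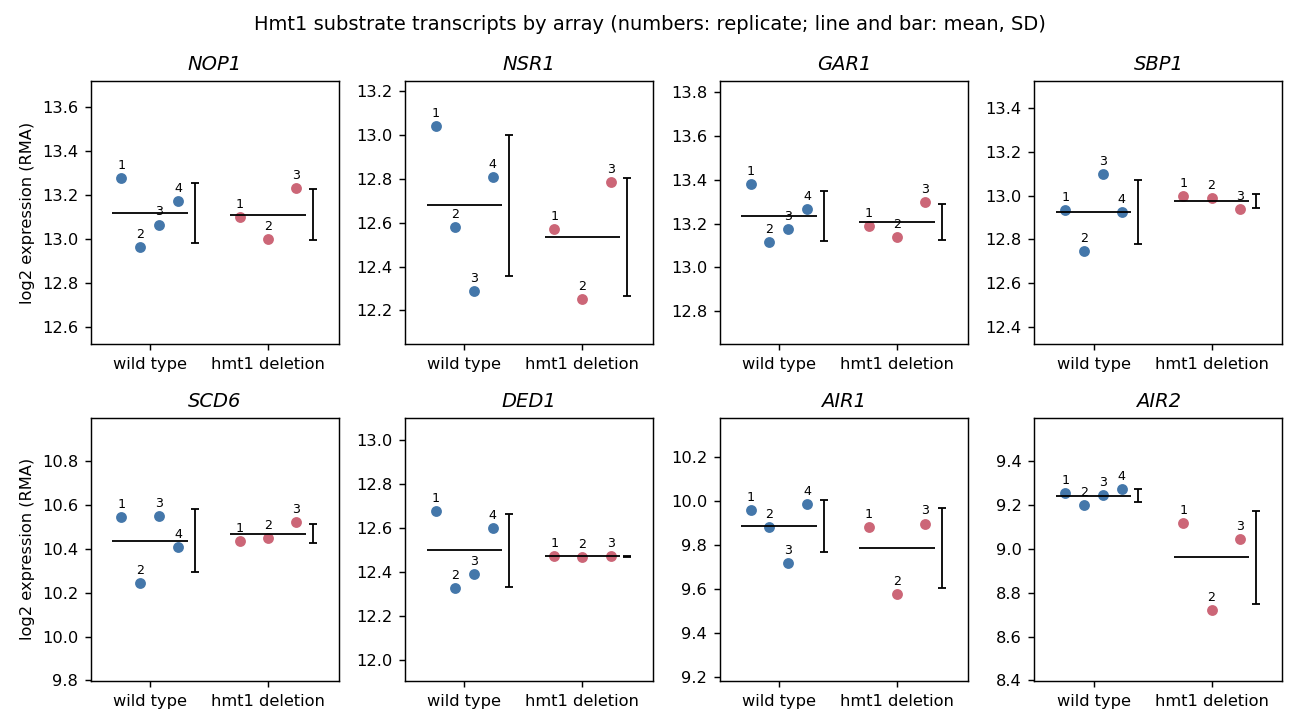
Log2 expression (vertical axis, the same span of 1.2 in every panel) of the 8 genes on each array, with the replicate number beside each point, a line at the group mean and a bar of 1 SD (4 wild-type and 3 deletion arrays). The groups overlap in every panel but that of AIR2, where the deletion arrays lie between 8.72 and 9.12 and the wild-type arrays between 9.20 and 9.27.

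The nucleolar genes had similar levels in both strains, and the spread between cultures was wider than the difference between the groups. NOP1 encodes fibrillarin, the enzyme that methylates ribose in ribosomal RNA within the box C/D small nucleolar particles. It read 13.28, 12.96, 13.07 and 13.17 in wild-type replicates 1 to 4 and 13.10, 13.00 and 13.23 in the deletion replicates. The deletion arrays all lay inside the wild-type range. The group means were 13.12 ± 0.14 (SD, n = 4) and 13.11 ± 0.12 (SD, n = 3), a difference of -0.0088 with a 95% interval of -0.22 to 0.20. This is a change of between -14.3% and 15.2%. The sign of so small a difference turned when the quantile normalization was repeated (0.015) and against wild-type replicates 2 and 4 alone (0.043).

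GAR1 encodes a core protein of the box H/ACA particles, which guide the conversion of uridine to pseudouridine in ribosomal RNA. Its values were 13.38, 13.12, 13.18 and 13.27 in the wild type and 13.19, 13.14 and 13.30 in the deletion strain. As for NOP1, all 3 deletion arrays fell within the wild-type range. The difference was -0.028 (95% interval -0.21 to 0.16), and it turned to 0.016 against wild-type replicates 2 and 4 alone. NOP1 and GAR1 read near the upper end of the scale, since 13.11 was the 95th percentile of all values and 14.63 the highest value on any array.

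NSR1, whose protein resembles nucleolin and is needed for ribosomal RNA processing, varied most among the 8 genes. It read 13.04, 12.58, 12.29 and 12.81 in wild-type replicates 1 to 4 and 12.57, 12.25 and 12.79 in the deletion replicates. The wild-type cultures alone spanned 0.75, with replicate 1 highest and replicate 3 lowest, and the deletion cultures spanned 0.54. Its SD within the groups was 0.30, higher than that of 95.3% of the probe sets, where the median was 0.12. The difference of -0.14 (SE 0.19, limma adjusted p = 0.878) had a 95% interval of -0.59 to 0.30, the widest of the 8. Single arrays moved it strongly: it was -7.38e-05 without deletion replicate 2, -0.022 without wild-type replicate 1, and -0.27 without wild-type replicate 3 or deletion replicate 3. As a change in level this interval runs from -33.3% to 23.1%.

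The genes of translation control also overlapped between the strains, and their median difference was 0.032. SBP1 encodes a protein with RGG repeats that binds the scaffold factor eIF4G, represses translation and favours removal of the cap. Its values were 12.94, 12.75, 13.10 and 12.92 in the wild type and 13.00, 12.99 and 12.94 in the deletion strain. The wild-type arrays lay on both sides of the deletion arrays, with replicate 2 lowest and replicate 3 highest. The difference was 0.050 (95% interval -0.15 to 0.24). Against wild-type replicates 1 and 3 alone it was -0.042, against 2 and 4 alone 0.14, and without wild-type replicate 2 it was -0.011.

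SCD6 encodes another eIF4G-binding repressor found in P bodies. It read 10.55, 10.25, 10.55 and 10.41 in the wild type and 10.44, 10.45 and 10.52 in the deletion strain. Wild-type replicate 2 was again the lowest array, and replicates 1 and 3 were the highest. In the deletion strain the order was not that of SBP1, since replicate 3 was highest for SCD6 and lowest for SBP1. The difference of 0.032 (95% interval -0.16 to 0.23) turned to -0.079 against wild-type replicates 1 and 3 alone and to -0.032 without wild-type replicate 2. Against wild-type replicates 2 and 4 alone it was 0.14.

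DED1 encodes the DEAD-box RNA helicase that helps the small ribosomal subunit to reach the start codon. It read 12.68, 12.33, 12.39 and 12.60 in the wild type and 12.47, 12.47 and 12.47 in the deletion strain. The deletion arrays differed from each other by 0.0030, while the wild-type arrays spanned both sides of them. Deletion replicates 1 and 3 shared the same DED1 value, as they did for 2.85% of all probe sets. Over all named probe sets the deletion arrays were also closer together, with a median SD of 0.071 against 0.13 in the wild type. The difference was -0.028 (95% interval -0.24 to 0.19), which turned to 0.0077 against wild-type replicates 2 and 4 alone and to 0.032 without wild-type replicate 1. HIS3, the gene changed by the his3∆1 allele in both strains, is the next gene to DED1 in the RefSeq R64 annotation.

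**Figure D2:**
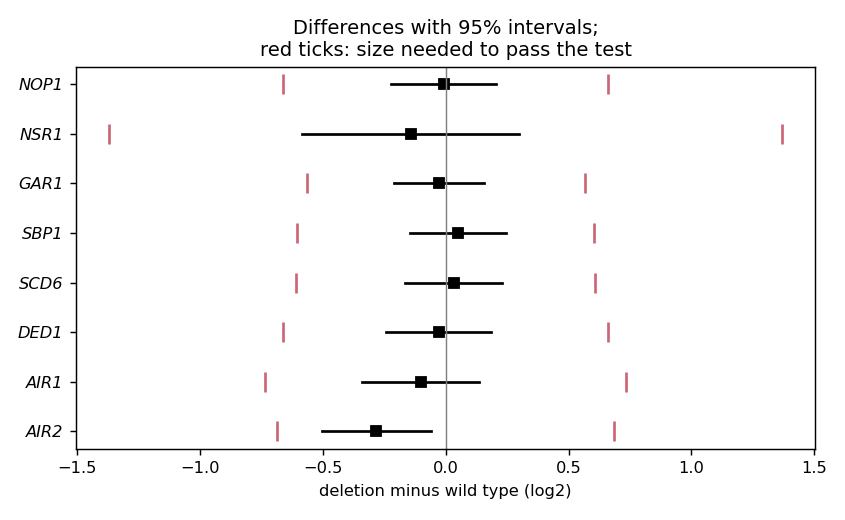
Deletion minus wild type (horizontal axis, log2) for each of the 8 genes, with the 95% interval of the limma fit as a black line and red ticks at the size that would have passed the adjusted threshold at the standard error of that gene. The 8 estimates lie between -0.28 and 0.050, and the interval of AIR2 alone leaves out 0.

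The arrays could have called only larger changes in these genes. At the standard errors measured, a difference of 0.57 would have been needed for GAR1, 0.66 for NOP1 and DED1, and 1.37 for NSR1 to rank next among the called probe sets. The 95% intervals of 6 genes lay within -0.5 to 0.5. Those of NSR1 and AIR2 reached beyond -0.5, to -0.59 and -0.504.

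The largest difference of the 8 was that of AIR2. Air2 is a zinc knuckle protein that brings RNA to the TRAMP complex, in which a poly(A) polymerase adds short tails to nuclear RNA and the helicase Mtr4 hands it to the exosome. AIR2 read 9.25, 9.20, 9.24 and 9.27 in wild-type replicates 1 to 4 and 9.12, 8.72 and 9.04 in deletion replicates 1 to 3. All deletion arrays were below all wild-type arrays, with 0.081 between the nearest of them, and deletion replicate 2 was far below the other two. The wild-type mean was 9.24 ± 0.031 (SD, n = 4) and the deletion mean 8.96 ± 0.21 (SD, n = 3). The difference of -0.28 (SE 0.096, 95% interval -0.504 to -0.060) corresponds to a level 17.7% lower, and its limma adjusted p of 0.648 missed the threshold. A lower level in all cells and a loss in part of the cells cannot be told apart in a culture. Without deletion replicate 2 it was -0.16, and against wild-type replicates 2 and 4 or 1 and 3 alone it was -0.28 and -0.29. At the standard error of AIR2, 0.69 would have been needed to pass.

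AIR1 encodes the other zinc knuckle protein, which takes the place of Air2 in the form of TRAMP that holds the polymerase Trf5. It read 9.96, 9.88, 9.72 and 9.99 in the wild type and 9.88, 9.58 and 9.90 in the deletion strain. Deletion replicate 2 was again the lowest array, and the other two fell within the wild-type range. The difference was -0.10 (95% interval -0.34 to 0.14), and without deletion replicate 2 it was 0.0041. Against wild-type replicates 2 and 4 alone it was -0.15, and against 1 and 3 alone -0.053.

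Whether the transcripts of the pair changed unequally was asked with the ratio of AIR1 to AIR2 on each array, in which a shift common to both cancels. Its absolute size has no meaning, because the probe sets differ. On the log2 scale the ratio was 0.71, 0.68, 0.48 and 0.71 in wild-type replicates 1 to 4 and 0.77, 0.85 and 0.86 in the deletion replicates. The deletion arrays were all higher, and wild-type replicate 3 stood below the other wild-type arrays. The group means were 0.64 ± 0.11 (SD, n = 4) and 0.83 ± 0.052 (SD, n = 3), and the difference of 0.18 gave an exact two-sided permutation p of 0.0286, the smallest that the 35 splits of the arrays allow. Without wild-type replicate 3 the difference was 0.12, with no array overlapping and an exact permutation p of 0.1, the smallest that 3 against 3 arrays allow. AIR1 and AIR2 were set side by side with the earlier results for these genes known. The ratio reuses the AIR2 values, which on their own did not overlap between the groups. Among single probe sets 7.64% did not overlap, and how often ratios of other gene pairs do not was not counted.

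**Figure D3:**
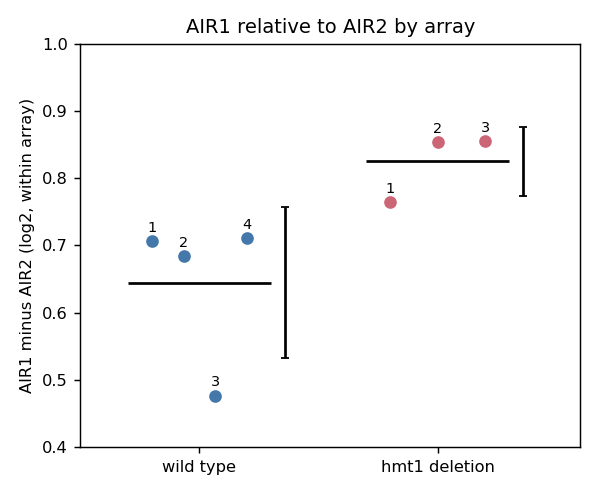
Log2 ratio of AIR1 to AIR2 within each array (vertical axis), with replicate numbers, a line at the group mean and a bar of 1 SD. The 3 deletion arrays lie between 0.77 and 0.86 and the 4 wild-type arrays between 0.48 and 0.71.

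The 8 genes often stood high or low on the same arrays. NOP1, NSR1, GAR1 and DED1 were highest in wild-type replicate 1 among the wild-type arrays, and 6 of the 8 genes were lowest in wild-type replicate 2 (NOP1, GAR1, SBP1, SCD6, DED1 and AIR2). In the deletion strain, 6 of the 8 were lowest in replicate 2 (NOP1, NSR1, GAR1, DED1, AIR1 and AIR2) and 5 highest in replicate 3. For DED1 the gap was slight, at 12.469 in replicate 2 and 12.472 in replicates 1 and 3. The shares over all probe sets were not counted, so these orders are not shown to be particular to the 8 genes. Every measured gene of the initiation list below but DBP1 was likewise lowest in wild-type replicate 2. After each gene was centred on its own mean, the profiles over the 7 arrays were closest for NOP1 and GAR1, with a root mean square distance of 0.029. GAR1 and DED1 followed at 0.059 and SBP1 and SCD6 at 0.061, while AIR1 and AIR2 were 0.12 apart and NSR1 and SBP1 farthest, at 0.32. These distances describe 7 arrays and depend on how much a gene varies.

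**Figure D4:**
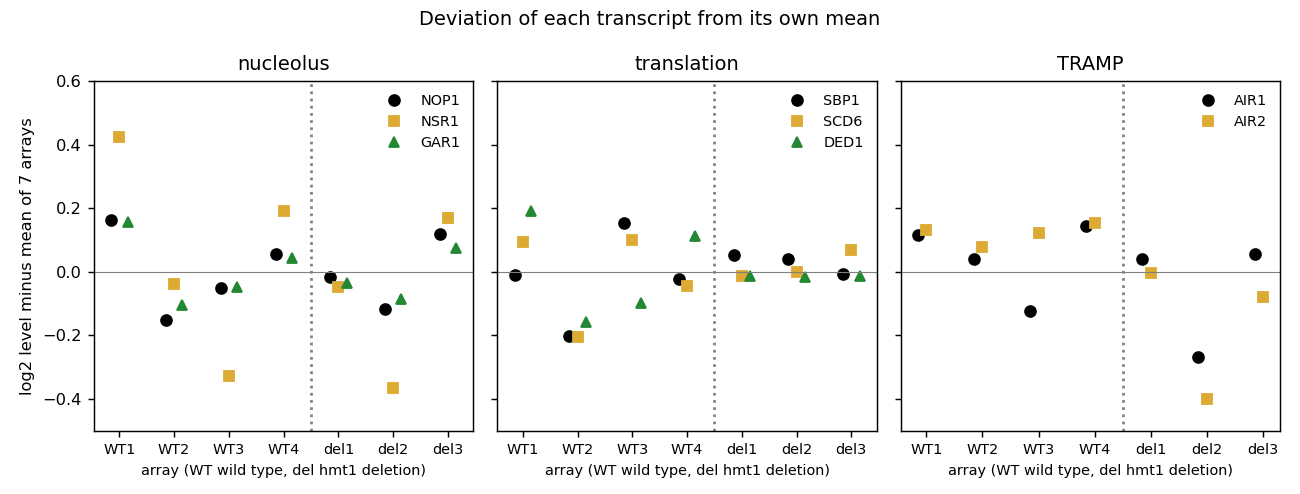
Log2 level of each gene minus its own mean over the 7 arrays (vertical axis), for wild-type (WT) and deletion (del) arrays, in panels for the nucleolar, translation and TRAMP genes. NOP1 and GAR1 almost coincide on every array, NSR1 swings most, and both AIR genes are lowest in deletion replicate 2.

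Among all named genes, the profile nearest to NOP1 was that of TIF6, at a distance of 0.016, and the profile nearest to GAR1 was that of DRN1, at 0.019. HCA4 was nearest to NSR1 (0.054), SEC23 to SBP1 (0.0098), SHE4 to SCD6 (0.022) and NAM7 to DED1 (0.043). SHQ1 was nearest to AIR1 (0.031) and NUC1 to AIR2 (0.060). For comparison, the median distance of all probe sets from a gene of this group ran from 0.13 for SBP1 to 0.29 for NSR1.

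The partners of the 8 proteins were compared in 8 lists that hold 76 further measured genes. None passed the test, and 3 had an unadjusted p under 0.05. In 3 of the 76 (3.95%) the groups did not overlap, against 7.64% of all probe sets. The genes divided into 36 lower and 40 higher, with a median of 0.0046.

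Near the nucleolar proteins the differences were small. The box C/D list (NOP1, NOP56, NOP58 and SNU13) lay between -0.0088 and 0.0054, with SNU13, whose product binds the guide RNA, at -0.0083 (SE 0.062). The box H/ACA list of 6 genes had a median of -0.021, and SHQ1, an assembly chaperone of these particles, was at -0.087 (SE 0.11). Of 15 genes of RNA polymerase I and its factors, RRN3 stood apart. It encodes the factor that makes RNA polymerase I ready to start transcription, and it read 9.96, 9.86, 9.67 and 9.78 in the wild type and 9.33, 9.14 and 9.55 in the deletion strain. The groups did not overlap, and the difference of -0.48 (SE 0.11) did not pass (limma adjusted p = 0.341). The other 14 genes of that list overlapped between the groups, and the list median was -0.011.

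Near the translation proteins, 8 of 10 cap-binding and initiation genes were higher in mean, where 47.5% of all probe sets were lower. Their median was 0.064, and none passed. Every measured gene of this list but DBP1 had its lowest wild-type value in replicate 2. The number of higher genes depends on that array, and the count was not repeated without it. DBP1, the close relative of DED1, was at 0.11 (SE 0.078) and at 0.052 without deletion replicate 1. Of the 19 genes of decapping and P bodies, SBP1 and SCD6 included, 12 were higher in mean, with a median of 0.035. Most of those 12 also had their lowest wild-type value in replicate 2. EDC2, an activator of decapping, was the highest of them at 0.28 (SE 0.087, limma adjusted p = 0.582).

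In the list of TRAMP and its nuclear partner, the Nrd1 complex, AIR2 was the lowest of 8 genes and NRD1 the highest. Nrd1 binds RNA and ends the transcription of short noncoding RNAs, which TRAMP and the exosome then process. NRD1 read 11.21, 10.76, 11.03 and 10.89 in the wild type and 11.46, 11.37 and 11.57 in the deletion strain. All deletion arrays were above all wild-type arrays. Its difference of 0.49 (SE 0.11) did not pass (limma adjusted p = 0.309). It passed only when arrays were weighted by their quality (limma adjusted p = 0.0172), where the calls over all probe sets rose from 11 to 59. Against wild-type replicates 2 and 4 alone NRD1 was 0.64 higher, and against 1 and 3 alone 0.35 higher. Over the alternatives for NRD1 the limma adjusted p ran from 0.0172 to 0.989. The 2 poly(A) polymerase genes PAP2 (also called TRF4) and TRF5 were at -0.0012 (SE 0.076) and -0.12 (SE 0.078), and MTR4 was at 0.014 (SE 0.15). The 13 nuclear exosome genes had a median of -0.0027, with MPP6, an exosome cofactor, at -0.29 (SE 0.13, limma adjusted p = 0.765). MPP6 was at -0.38 against wild-type replicates 2 and 4 alone and at -0.20 against 1 and 3 alone.

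The 8 genes of other Hmt1 substrates, most of them messenger RNA export proteins, had a median of -0.050, beside -0.028 for the 8 genes described here, and none of either set passed. GBP2, an export factor, was 0.081 higher (SE 0.056), with no overlap between its groups, and 0.034 higher against wild-type replicates 1 and 3 alone.

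**Figure D5:**
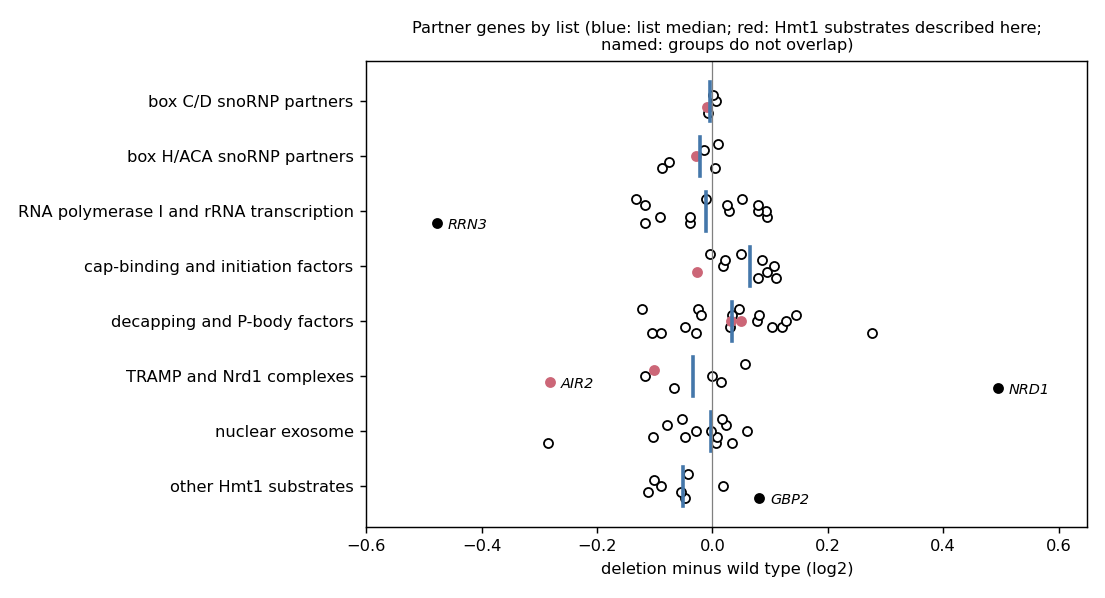
Deletion minus wild type (horizontal axis, log2) of every measured gene in the 8 partner lists, with the list median in blue, the genes NOP1, GAR1, SBP1, SCD6, DED1, AIR1 and AIR2 in red, and the names of genes whose groups do not overlap. RRN3, AIR2, NRD1 and GBP2 carry names, and the list medians lie between -0.050 and 0.064.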

How the data were processed

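The authors deposited log2 expression values per probe set, computed by RMA with affy 1.52.0, per the submitters' processing notes. RMA corrects background, normalizes by quantiles and summarises probes by median polish. For the probe set definition and filters, the sources used here give nothing. RMA gives every array the same distribution, so a change in total messenger RNA cannot be seen. Gene names came from the platform annotation, updated by gene identifier through the RefSeq R64 table. The 402 probe sets without a single gene name were left out of the main fit. They were compared only in the alternative with all probe sets. No genome build is named, so no coordinates are given.

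Columns were tied to samples, and samples to groups, through the labels. A linear model of limma 3.58.1 with moderated variances (R 4.3.3) was fitted to all 5498 named probe sets (two-sided, Benjamini-Hochberg over all of them, threshold 0.05). Errors of differences and 95% intervals come from this fit. Single values were tested by exact permutation of the absolute difference in means. The procedure was tested on simulated data. The number of arrays limits the precision.

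The members and lists were chosen with earlier results of these data known. TIF1, a gene of the initiation factor list, was not analysed here. Named were the 8 genes, HMT1, from each list the genes past the test or otherwise the 1 with the smallest p that is no member, and the nearest profile to each of the 8. PAP2, TRF5, MTR4, NOP56, NOP58, HIS3, ASG7, AGA2, MF(ALPHA)1 and SAG1 were named outside this rule. Alternatives were leaving out each array, median centring, repeated quantile normalization, leaving out dim probe sets (under the 25th percentile of means), array weights, a robust fit, an unmoderated fit, an intensity trend, a replicate block, each pair of wild-type arrays, all probe sets, and averaged probe sets for the lists. Plots used matplotlib 3.10.9 (Python 3.11.15).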

Additional observations from a re-analysis of the deposited data

Results flagged for a closer look

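The ratio of AIR1 to AIR2 was tested for a single distant array in the wild type. Wild-type replicate 3 (0.48) lay so far below the other three (0.68 to 0.71) that its gap to the nearest took 0.881 of the whole range, above Dixon's critical value for 4 arrays. AIR1 was lowest in that array among the wild-type arrays (9.72), while AIR2 was within its narrow range (9.24). The groups tested were 18 (the 8 genes, HMT1, 8 partner genes and this ratio), 1 of them passed, and chance passes about 1 in 20.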

How the results depend on the processing

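None of the 8 genes was called under any of the 18 alternatives. AIR2 kept its direction in all of them, between -0.36 and -0.16 (adjusted p = 0.205 to 0.989, limma). NSR1 ran from -0.27 to -7.38e-05, the latter without deletion replicate 2, which is no direction. Other signs turned, and the cause was not tested. NOP1 was at 0.015 with repeated quantile normalization, 0.0088 with the replicate block and 0.043 against wild-type replicates 2 and 4 only. Against the same pair GAR1 was at 0.016 and DED1 at 0.0077, and DED1 was at 0.0059 with the block. Against replicates 1 and 3 only, SBP1 was at -0.042 and SCD6 at -0.079. SNU13 was at 0.0066 with repeated quantile normalization and at 0.032 with array weights. Leaving out each array gave ranges of -0.070 to 0.047 for NOP1, -0.072 to 0.021 for GAR1, -0.011 to 0.11 for SBP1, -0.032 to 0.070 for SCD6, -0.085 to 0.032 for DED1, -0.16 to 0.0041 for AIR1, 0.052 to 0.16 for DBP1, -0.15 to 0.038 for SHQ1 and -0.041 to 0.042 for SNU13.

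The ratio of AIR1 to AIR2 was higher in the deletion strain in every alternative tried, with differences of 0.12 to 0.21 when an array was left out, 0.13 against wild-type replicates 2 and 4, 0.23 against 1 and 3 and 0.20 with the replicate block. With fewer arrays its exact test cannot reach 0.05. The exact permutation p was 0.0667, the smallest possible, without deletion replicate 1, but 0.133 without deletion replicate 2 or 3. Against wild-type replicates 1 and 3 it was 0.1, the smallest possible, but 0.2 against 2 and 4. Where p was above the smallest possible, another split of the arrays was as extreme as that by strain. The 11 called probe sets became 1 to 9 when an array was left out, 0 without dim probe sets (which removes HMT1, so it has no value there), 1 with the replicate block or the unmoderated fit, 7 against replicates 1 and 3, and 59 with array weights. Array weights also called 1 gene of the TRAMP and Nrd1 list, NRD1. No other list had a call. The replicate block drops wild-type replicate 4, which has no partner. Same-numbered deviations correlated at -0.0346, 0.174 and -0.512, and those of differently numbered arrays from -0.295 to 0.358. So few arrays, centred within their groups, cannot decide whether the numbers pair them.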

Other observations

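The protein-coding genes next to the 8 on their chromosomes were looked up in the RefSeq R64 annotation after the other values had been seen, and 15 of them were measured. None passed the test, in none did the groups avoid overlap, and their differences ran from -0.20 to 0.22.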
